A study of Mus musculus with 6 samples.

Results

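The naive pluripotency genes and the genes of the LIF pathway that sustains them were followed through mouse embryonic stem (ES) cells and cells differentiated from them, with and without loss of the telomere protein TRF2. The set is a list of 32 named genes, matched by symbol to the 22600 genes of the count table. All 32 were found, and all 32 were among the 15535 genes that passed the filter on low counts. Untreated ES cells of a C57BL/6 background, given as wild-type, made up 1 group of 2 libraries. ES cells treated with OHT (hydroxytamoxifen, a ligand that switches on Cre recombinase fused to the oestrogen receptor) for 3 days, given as TRF2-/-, made up the second group of 2. The differentiated cells, named FLICs in the labels, had 1 untreated wild-type library and 1 OHT-treated TRF2-/- library. All cells were held in culture for 96 h. The labels do not give the allele, the Cre driver or the number of clones, and no group received OHT while keeping TRF2, so OHT itself and loss of TRF2 cannot be told apart. The labels do not say if paired libraries are independent cultures, and p-values here speak only of the spread among the libraries sequenced, which may be technical.

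Mouse ES cells hold the state of the preimplantation epiblast. Oct4 (Pou5f1), Sox2 and Nanog form the core of that state, and are shared with the later, primed epiblast. A second layer of transcription factors, among them Esrrb, Klf2, Klf4, Klf5, Tfcp2l1, Tbx3 and Nr5a2, marks the naive state and is switched off when cells leave it. LIF (leukaemia inhibitory factor) feeds this layer: it binds the receptor Lifr with its partner gp130 (Il6st), which activates the transcription factor Stat3, and Stat3 turns on both naive genes and its own inhibitor Socs3.

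Total counts ran from 23534551 to 43965309 per library. CPM below are normalised read counts, taken relative to library totals that were scaled by TMM, and a count of 0 allows at most 3 counts, or 0.0686 to 0.118 CPM. Terf2, which encodes TRF2 (chromosome 8, 107069400 to 107096547, GRCm38), had 554 and 732 counts in untreated ES cells, 9 and 10 with OHT, and in FLICs 268 without OHT and 5 with it, so the OHT libraries were the low ones in both cell types. The untreated ES libraries lay close together, with 0 of 12149 genes past 2-fold between them, whereas 421 of 12698 genes were higher and 49 lower past 2-fold in OHT replicate 2 than in OHT replicate 1. Of 10 fibroblast and mesenchymal markers, 8 were called higher in FLICs when the untreated libraries were compared, beside 26.2% of all genes tested. The other 2 were called lower, beside 28.7%, and these calls rest on 1 FLICs library. Vim and Acta2 stood at 6173 and 5936 CPM in untreated FLICs, but Thy1 and Pdgfra, also on that list, at only 0.556 and 0.216 CPM. In ES cells Acta2 stood at 0.728 to 2.15 CPM and Postn had no count in 3 of the 4 libraries, while the whole list summed to 1388 to 2289.7 CPM, with Fn1, which ES cells also express, at 1115 to 1930.1 CPM.

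In untreated ES cells each of the 32 genes was expressed, and per length the RNA-binding protein gene Dppa5a stood highest. Levels between genes are compared as RPKM, CPM per kilobase of the deposited gene length. Dppa5a stood at 1508 and 1819.7 RPKM in the untreated ES libraries, followed by Pou5f1 at 1148 and 1173, Nanog at 959 and 938 and L1td1, an RNA-binding protein derived from a LINE-1 element, at 671 and 619.6 RPKM. The ranges of these 4 did not overlap. Mybl2, Sox2 and Utf1 came next, at 326 to 383 RPKM, with ranges that overlapped. At the low end stood Lifr at 11.9 and 12.7, Prdm14 at 20.7 and 24.7, Il6st at 27.6 and 31.7 and Dppa3 at 20.4 and 36.8 RPKM. The range of Dppa3 overlapped those of Prdm14 and Il6st, which did not overlap each other. How reads shared with near-identical copies were assigned is not given in the sources used here, which leaves single values uncertain for genes with such copies (Dppa5a with Dppa5b and Dppa5c, Nanog and its pseudogenes, Tcl1 beside the Tcl1b genes).

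**Figure D1:**
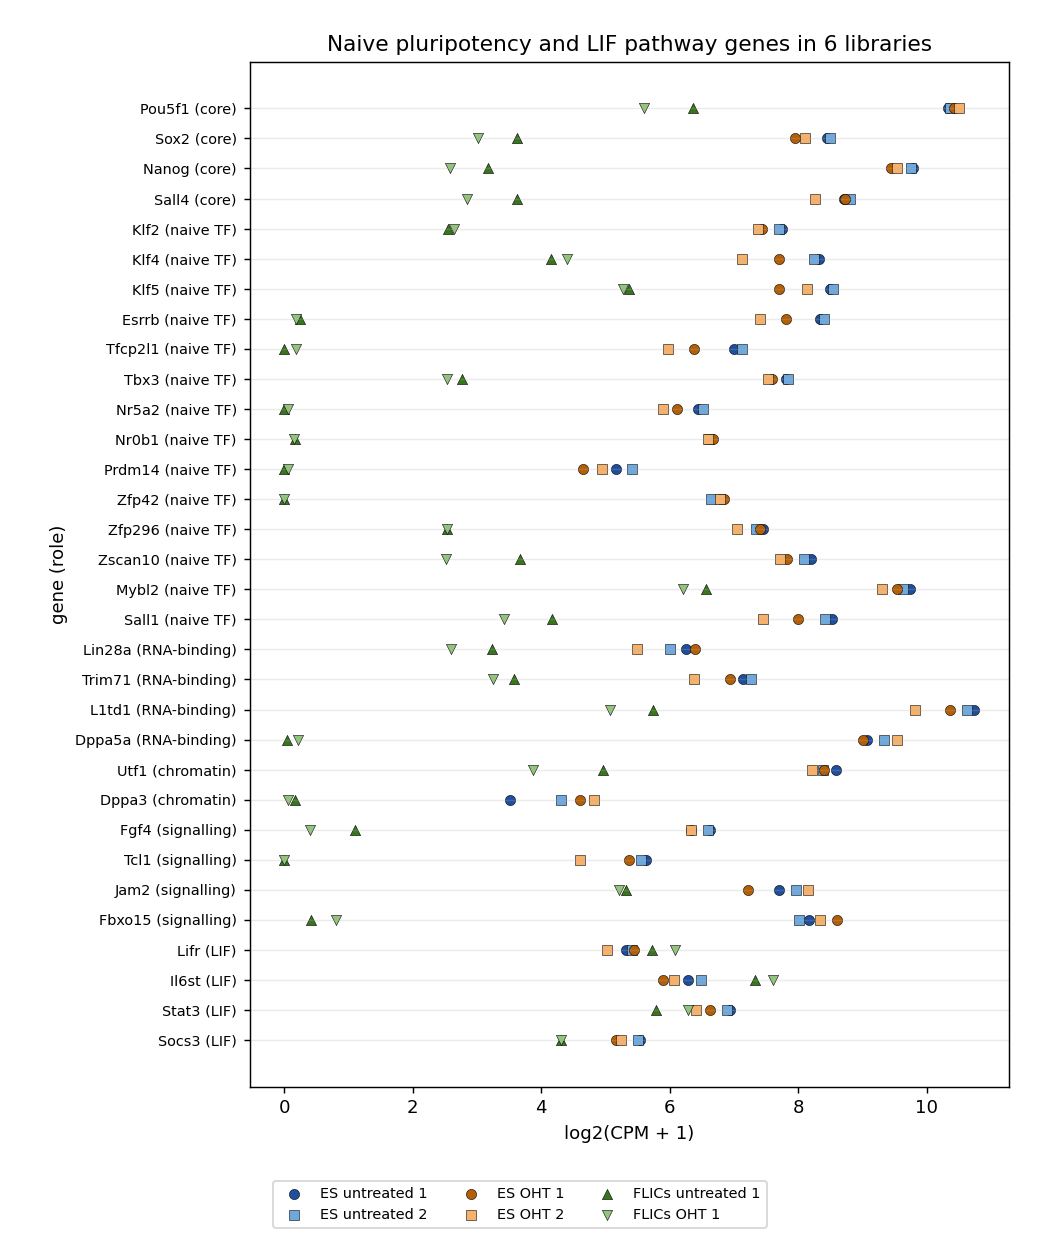
Level of each of the 32 genes in each of the 6 libraries, as log2(CPM + 1), with the role of the gene in brackets. The ES cell libraries lie together on the right for most genes, the FLICs libraries (triangles) lie far to the left for the genes outside the LIF pathway, and for Lifr and Il6st the FLICs libraries lie to the right.

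In ES cells with OHT, labelled TRF2-/-, all 32 genes were still expressed, Pou5f1 and Zfp42 stood at or slightly above their untreated level, and Tfcp2l1, Klf4, Esrrb and Sall1 stood at the lowest values relative to untreated cells. By edgeR's quasi-likelihood test with Benjamini-Hochberg adjustment, 0 of 32 genes were called at an adjusted p of 0.05, beside 0.534% of all genes tested (0.521% higher and 0.0129% lower). At an unadjusted p under 0.05, 15 were lower and 1 was higher, beside 7.79% and 10.5% of all genes. DESeq2 called 3 lower, Tfcp2l1, Klf4 and Esrrb, beside 0.509% of all genes, and 0 higher, beside 1.82%. The median log2 fold change of the 32 was -0.30, beside -0.0082 for all genes tested, and 26 of 32 were negative, beside 50.7%. Both OHT libraries lay below both untreated ones for 20 of the 32 genes, beside 27.6% of all genes, and above both for 4, beside 25.2%. The edgeR count changed with the libraries used. Without OHT replicate 1, 21 of the 32 were called lower, beside 20.3% of all genes, and 3 higher, beside 19.9%. Without OHT replicate 2, 11 were called lower, beside 13.9%, and 3 higher, beside 14.9%. In both of these fits the spread comes from the close untreated pair alone.

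Among the core factors, Pou5f1, the POU-domain factor Oct4, stood at 1288 and 1316 CPM without OHT and at 1368 and 1441 CPM with it. Both OHT libraries were the higher ones, by little (log2 fold change 0.11, SE 0.14, edgeR adjusted p = 0.702). Sox2, its HMG-box partner, stood at 347 and 359 CPM without and 247 and 275 CPM with OHT, so the groups did not overlap (-0.44, SE 0.14, edgeR adjusted p = 0.201). Nanog, the homeodomain factor, stood at 878 and 858 CPM and then 696 and 745 CPM (-0.27, SE 0.14, edgeR adjusted p = 0.352). Sall4, a zinc-finger factor that binds with them, stood at 417 and 446 CPM and then 423 and 305 CPM, with only OHT replicate 2 below the untreated range.

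The lowest log2 fold changes were those of naive transcription factors. Tfcp2l1, a grainyhead-like factor downstream of Stat3 (chromosome 1, 118627945 to 118685168, GRCm38), stood at 127 and 138 CPM without OHT and at 82.6 and 62.1 CPM with it (-0.87 as a log2 fold change, SE 0.18, edgeR adjusted p = 0.117). Klf4, a Krüppel-like factor also fed by Stat3 (chromosome 4, 55527143 to 55532466), stood at 319 and 302 CPM and then 206 and 138 CPM (-0.85, SE 0.22, edgeR adjusted p = 0.152). Esrrb, an orphan nuclear receptor (chromosome 12, 86361117 to 86521628), stood at 322 and 339 CPM and then 224 and 169 CPM (-0.75, SE 0.18, edgeR adjusted p = 0.147). In all 3 the OHT libraries lay below the untreated ones, and OHT replicate 2 was the lowest of the 4. Sall1, a zinc-finger factor of the Sall family, had the same order, at 366 and 339 CPM and then 253 and 174 CPM (-0.72, edgeR adjusted p = 0.18). Klf5 stood at 359 and 370.2 CPM and then 207 and 279 CPM, with OHT replicate 1 the lowest. Its relative Klf2 stood at 213 and 208 CPM and then 171 and 165 CPM, and the groups did not overlap either. Nr5a2, Prdm14, Tbx3, Zscan10 and Mybl2 also had both OHT libraries below both untreated ones, with log2 fold changes from -0.50 (Prdm14) to -0.26 (Tbx3). Zfp42, known as Rex1 and a standard marker of naive cells, stood at 109 and 99.2 CPM and then 115 and 109 CPM, just above the untreated range. Nr0b1, known as Dax1, stood at 96.9 and 96.7 CPM and at 101 and 95.4 CPM, and Zfp296 overlapped between the groups. The log2 fold changes of Zfp42 and Nr0b1 were 0.10 and 0.019.

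The RNA-binding genes had no common direction. L1td1 stood at 1708 and 1576 CPM without and 1318 and 905 CPM with OHT (-0.56, edgeR adjusted p = 0.253). Trim71, known as Lin41, a repressor of mRNAs of differentiation, stood at 140.2 and 153 CPM and then 121 and 82.4 CPM. Both were lower in each OHT library. Lin28a, which blocks maturation of let-7, stood at 75.7 and 63.1 CPM and then 83.5 and 43.9 CPM, so the OHT libraries fell on either side of the untreated ones. Dppa5a did as well, at 534 and 644 CPM and then 513 and 745 CPM.

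The 2 genes of chromatin-associated proteins differed. Dppa3, known as Stella, which protects DNA methylation in the zygote and is patchy in ES cultures, stood at 10.4 and 18.7 CPM without and 23.4 and 27.2 CPM with OHT, the highest log2 fold change of the 32 (0.80, SE 0.30, edgeR adjusted p = 0.25). The untreated libraries alone were far apart, and the groups did not overlap. Utf1 stood at 382 and 332 CPM and then 338 and 295 CPM, overlapping. Of the other markers, Fbxo15, an F-box gene driven by Oct4 and Sox2, stood at 287 and 258 CPM and then 389 and 323 CPM (0.39, edgeR adjusted p = 0.276). Fgf4, the growth factor that primes ES cells for differentiation, stood at 97.3 and 95.2 CPM and then 79.2 and 79.9 CPM, non-overlapping and lower. Tcl1, a co-activator of Akt, stood at 48.5 and 45.8 CPM and then 40.2 and 23.2 CPM, with OHT replicate 2 lowest. Jam2, a junction adhesion molecule, stood at 207 and 248 CPM and then 148 and 284 CPM, so its OHT libraries lay on opposite sides of the untreated pair.

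Compared by replicate number, 24 of the 32 genes were lower with OHT in replicate 1, beside 60.6% of all genes whose mean reached 1 CPM, and 26 in replicate 2, beside 54.7%. Past 2-fold on log2(CPM + 1) were Dppa3 in replicate 1, higher by 1.10 (2.07% of all genes were that much higher and 1.09% lower), and Tfcp2l1, Klf4 and Esrrb in replicate 2, at -1.14 for Tfcp2l1, -1.13 for Klf4 and only just past the threshold for Esrrb (2.4% of all genes higher and 0.734% lower). In replicate 1 those 3 stood at -0.61, -0.63 and -0.52. With plain library totals in place of TMM, the median of all genes moved from -0.081 to 0.030 in replicate 1 and from -0.047 to 0.099 in replicate 2, the counts of lower members became 22 and 25, and no member of replicate 2 was past 2-fold. Between the OHT libraries themselves, 21 of 32 were lower in replicate 2, beside 50.3% of all genes, and 0 were past 2-fold, beside 3.32% higher and 0.386% lower. The widest gaps there were Jam2, higher in replicate 2 by 0.93, and Lin28a, at -0.91. Markers of the two-cell-like state moved with OHT: the 6 on the list summed to 5.83 to 6.16 CPM without and to 103 to 137 CPM with OHT. Of these, 5 of 6 were called higher, beside 0.521% of all genes tested. The 6 primitive endoderm markers summed to 5.79 to 6.33 CPM without and 11.1 to 13.9 CPM with OHT, with 0 called, beside 0.534% of all genes. The 7 trophoblast markers summed to 143 to 149.6 CPM without and 180.4 to 194 CPM with OHT. Krt18 was the 1 called higher, beside 0.521% of all genes, at 15.4 and 18.5 CPM without and 43.7 and 42.0 CPM with OHT. Of the 7 log2 fold changes, 6 were positive and 1 was negative. The 9 formative and primed epiblast markers summed to 209 to 224 CPM without and 163 to 201 CPM with OHT, with 0 called, beside 0.534% of all genes. Most of these sums was Dnmt3b, at 174 and 192 CPM without and 174 and 143 CPM with OHT, which overlapped. Of the 8 tested, 5 had a negative and 3 a positive log2 fold change, up to 2.61. Cer1 had no count in 3 of the 4 libraries. Their part in the values of the 32 genes was not tested. In these bulk samples, fewer cells of a type and less RNA per cell cannot be told apart.

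**Figure D2:**
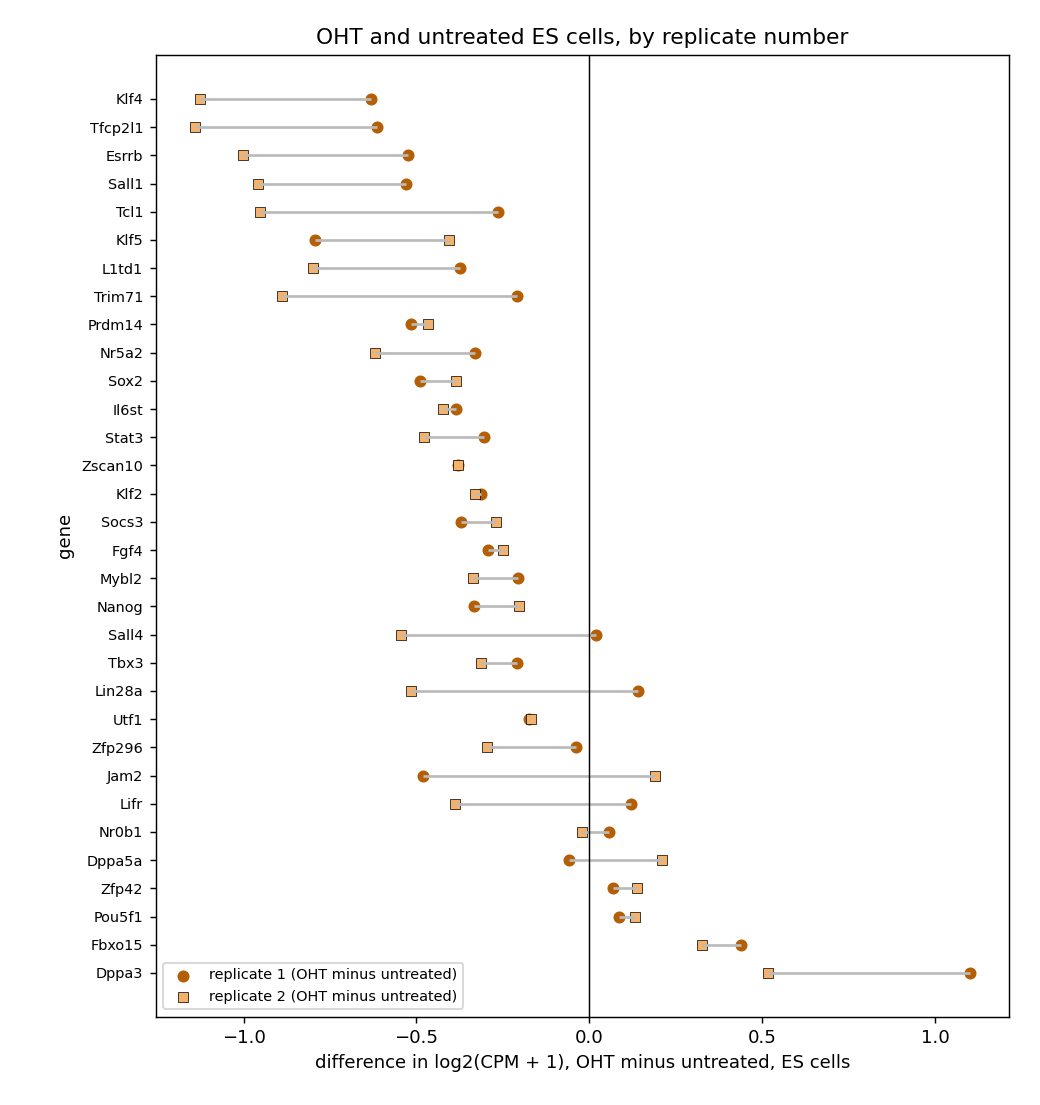
Difference in log2(CPM + 1) between OHT-treated and untreated ES cells for each gene, drawn separately for the libraries numbered 1 (circles) and 2 (squares) and sorted by their mean. Tfcp2l1, Klf4, Esrrb and Sall1 lie far to the left in both, Pou5f1 and Zfp42 lie just right of 0 in both, and Lin28a, Jam2, Dppa5a, Lifr, Sall4 and Nr0b1 change side between the pairs.

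In FLICs every gene outside the LIF pathway was lower than in ES cells, but to very different levels. In untreated FLICs against untreated ES cells, 30 of 32 genes were called lower by edgeR, beside 28.7% of all genes tested, and 1 was called higher, beside 26.2%. All 28 genes outside the LIF pathway were called lower, with edgeR adjusted p from 3.87e-05 to 0.00463. These contrasts rest on 1 FLICs library, which is assumed to vary like the ES libraries. The median log2 fold change of the 32 was -5.05, also with the genes that had no count set at their bound, beside -0.11 for all genes tested.

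At the bottom were naive factors and markers. Zfp42 went from 109 and 99.2 CPM in untreated ES cells to no count in either FLICs library, at least 1125-fold lower against 3 counts in the untreated FLICs library. Tfcp2l1, Nr5a2, Prdm14, which represses DNA methyltransferase and primed genes, and Tcl1 had no count in untreated FLICs either, at least 1431-fold, 950.1-fold, 412-fold and 509-fold lower. Dppa5a had 1 count against 589 ± 78.0 CPM (SD, n = 2), or 0.00524% of the ES level, with an exact Poisson 95% interval from 1.33e-04% to 0.0292% that covers counting error only. Esrrb had 6 counts, 0.0561% of its ES level (interval 0.0206% to 0.122%). Fbxo15 and Nr0b1 stood at 0.125% and 0.128%. Within this lowest group the intervals overlap widely, so most neighbours in the order cannot be separated at this depth. Dppa3 had 4 counts, at 0.848%, and Nanog, with 261 counts, stood at 0.928% (interval 0.819% to 1.05%).

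The remaining 17 genes outside the LIF pathway kept between 1.19% (Fgf4) and 17.0% (Jam2) of the untreated ES level, a boundary at 1% that was drawn after the values were seen. Pou5f1 stood at 80.9 CPM in untreated FLICs against 1302 ± 19.5 CPM (SD, n = 2) in untreated ES cells, or 6.21%. Per length it was still the highest of the 32 in that library, at 72.1 RPKM, above Il6st at 56.8 and Mybl2 at 42.1 RPKM. Sox2, at 3.2%, and Sall4, at 2.64%, kept less. The Krüppel-like factors were spread out: Klf5 kept 11.1%, Klf4 5.39% and Klf2 2.32%, with counting intervals that do not overlap. Mybl2, a cell-cycle factor of dividing cells, kept 11.4%, Lin28a 12.1%, Utf1 8.46% and Trim71 7.43%. Sall1, Zscan10, L1td1, Zfp296 and Tbx3, a T-box factor, lay between 2.58% and 4.8%. The 4 other ES cell markers Dppa2, Dppa4, Tdgf1 and Gdf3 were all called lower as well, beside 28.7% of all genes tested. They stood at 0.0617, 2.04, 4.66 and 8.4 CPM in untreated FLICs.

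**Figure D3:**
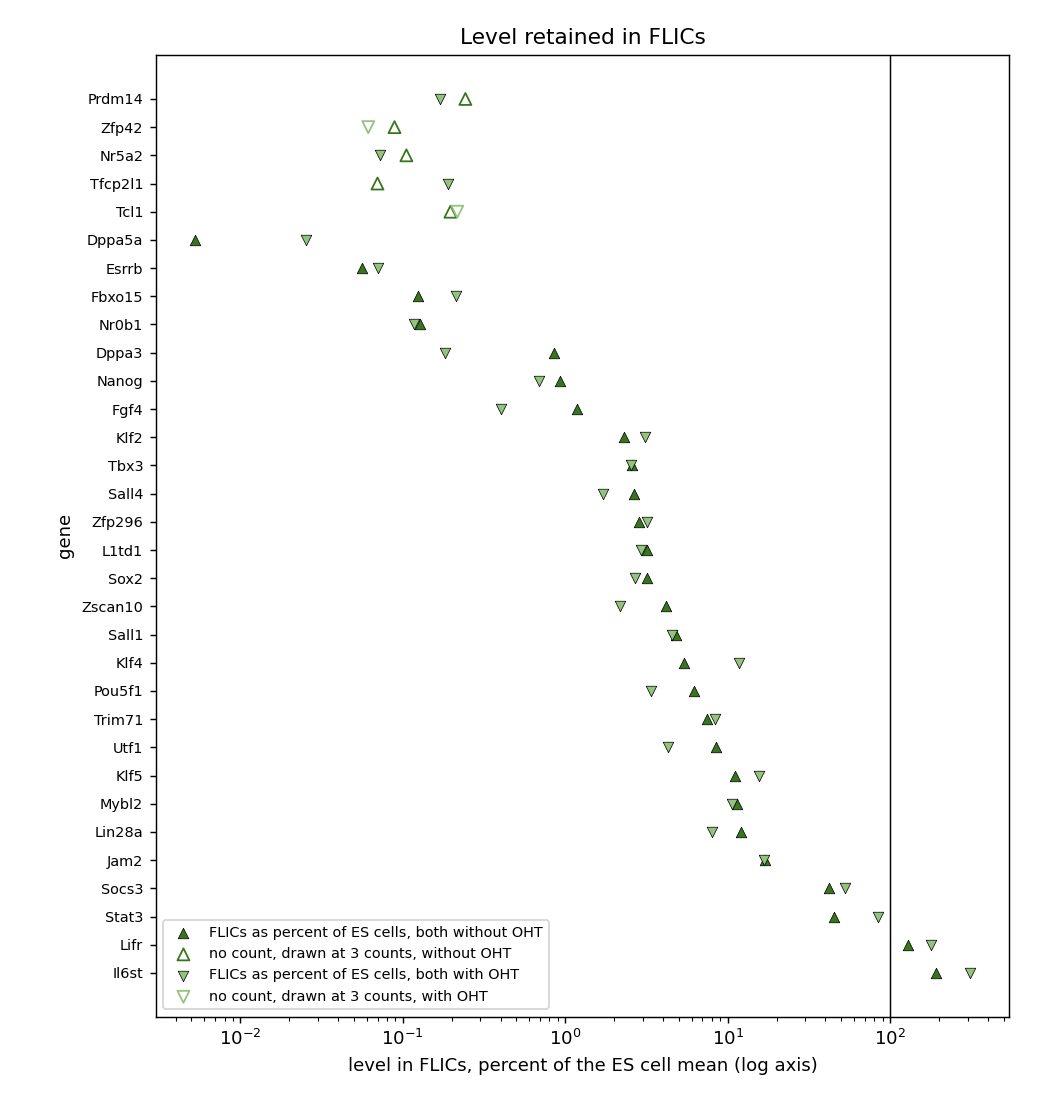
Level of each gene in FLICs as a percent of the ES cell mean of the same treatment, on a log axis, with filled symbols for measured values and open symbols, drawn at 3 counts, where the FLICs library had no count. The vertical line marks 100%. Lifr and Il6st lie to its right, Socs3 and Stat3 just left of it, and Zfp42, Tfcp2l1, Nr5a2, Prdm14, Tcl1, Dppa5a, Esrrb, Fbxo15, Nr0b1, Dppa3 and Nanog below 1% in both comparisons.

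Promoters of the set were read because the 28 genes outside the LIF pathway were all called lower in FLICs. The RefSeq table (GRCm38.p6) held promoters for 24 of the 32 genes, 31 in all. In the 250 bases before the start, the OCT core ATGCAAA, searched on both strands, was found in 5 of the 31 promoters, of Nanog (in a pair of overlapping windows), Sox2, Zfp296 and Zfp42, and in 4.12% of all 32851 promoters. The STAT core TTCCNNGAA was found in 3 (Esrrb, Lin28a and Zscan10) and in 4.06% of all, the KLF core GGGTGTG in 2 (Esrrb and Zfp42) and in 6.93% of all, the ESRRB core AAGGTCA in 1 (Lifr) and in 4.08% of all, and the SOX core CATTGTT in 1 (Pou5f1) and in 3.29% of all. The Pou5f1 match lies in a window inside the gene (chr17:35508557-35508806), and the window at its first start held no match. The matched Lifr window (chr15:7129322-7129571) also lies inside its gene. A match is only a match of letters. The promoters with an OCT core are printed because their genes differ in what was left in untreated FLICs, from no count (Zfp42) to 0.928% (Nanog), 2.86% (Zfp296) and 3.2% (Sox2) of the ES level. Each line gives the 250 bases before the start, 5′ to 3′ on the gene's strand, with the OCT core in capitals, and in Zfp42 also the KLF core, which reads CACACCC on that strand.
Nanog, chr6:122707239-122707488, plus strand: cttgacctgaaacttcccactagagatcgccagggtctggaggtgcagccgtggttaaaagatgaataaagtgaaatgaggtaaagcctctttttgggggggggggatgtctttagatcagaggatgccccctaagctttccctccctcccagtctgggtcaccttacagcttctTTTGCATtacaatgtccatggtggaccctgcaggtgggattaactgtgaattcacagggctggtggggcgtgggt
Sox2, chr3:34649745-34649994, plus strand: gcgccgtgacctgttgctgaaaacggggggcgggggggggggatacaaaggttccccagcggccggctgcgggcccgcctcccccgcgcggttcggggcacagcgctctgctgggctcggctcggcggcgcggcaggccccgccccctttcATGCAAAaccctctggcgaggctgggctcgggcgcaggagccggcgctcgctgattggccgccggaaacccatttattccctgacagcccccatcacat
Zfp296, chr7:19577037-19577286, plus strand: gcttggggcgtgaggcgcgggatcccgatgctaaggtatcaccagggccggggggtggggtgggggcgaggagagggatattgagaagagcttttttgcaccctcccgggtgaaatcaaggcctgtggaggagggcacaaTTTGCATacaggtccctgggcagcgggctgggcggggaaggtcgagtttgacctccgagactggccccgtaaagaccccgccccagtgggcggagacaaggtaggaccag
Zfp42, chr8:43307010-43307259, minus strand: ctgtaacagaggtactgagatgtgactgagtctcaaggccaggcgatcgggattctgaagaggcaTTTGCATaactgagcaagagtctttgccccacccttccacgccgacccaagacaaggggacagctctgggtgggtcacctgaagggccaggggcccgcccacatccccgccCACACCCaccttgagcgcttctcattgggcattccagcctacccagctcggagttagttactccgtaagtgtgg
Counted back from -1, the base just before the start, the leftmost base of the OCT core lies at -75 in Nanog, -99 in Sox2, -110 in Zfp296 and -185 in Zfp42. It reads ATGCAAA in Sox2 and TTTGCAT in the other 3.

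With OHT in both cell types, the comparison of FLICs and ES cells had 29 genes called lower, beside 29.3% of all genes tested, and 2 called higher, beside 28.4%. All 28 genes outside the LIF pathway were again called lower by edgeR, and the median log2 fold change of the 32 was -5.15. Zfp42 and Tcl1 had no count in FLICs with OHT, at least 1631-fold and 462-fold lower than in ES cells with OHT. Tfcp2l1 had 6 counts there, and Nr5a2 and Prdm14 2 each. Klf4 stood at 11.8% of the OHT-treated ES level, against 5.39% without OHT, and Pou5f1 at 3.37% against 6.21%. For Klf4 the ES mean was lower and the FLICs value higher with OHT, and for Pou5f1 the reverse held.

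Of the 4 LIF pathway genes, the receptor chains stood higher in FLICs than in ES cells, and Stat3 and Socs3 stood lower. Lifr, the ligand-binding receptor chain (chromosome 15, 7090614 to 7197489, GRCm38), had 39.1 and 41.6 CPM in ES cells without OHT, 42.5 and 31.6 CPM with it, and in FLICs 51.8 CPM without and 66.5 CPM with OHT. Both FLICs libraries were above all 4 ES libraries. The difference was called with OHT (log2 fold change 0.84, SE 0.21, edgeR adjusted p = 0.0181) and not without it (0.36, SE 0.22, edgeR adjusted p = 0.204), where it was called only when 1 or the other OHT-treated ES library was left out. Il6st, the shared signalling chain gp130 (chromosome 13, 112464070 to 112510086), stood at 77.2 and 88.6 CPM and 58.8 and 65.8 CPM in ES cells, and in FLICs at 159 CPM without and 193 CPM with OHT. It was higher in FLICs in both comparisons (0.94, SE 0.17, edgeR adjusted p = 0.00636 without OHT, and 1.64, SE 0.17, edgeR adjusted p = 7.29e-04 with OHT). The call without OHT was lost when untreated ES replicate 1 was left out (edgeR adjusted p = 0.0858).

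Stat3, the transcription factor that gp130 activates, stood at 122 and 117 CPM and 98.2 and 84.0 CPM in ES cells without and with OHT, and in FLICs at 54.0 CPM without and 77.2 CPM with OHT. It was lower in untreated FLICs (-1.14, SE 0.18, edgeR adjusted p = 0.00369). With OHT the values lay closer, and the difference of -0.24 was not called (edgeR adjusted p = 0.282). Without OHT replicate 2 it was called, at -0.36 (edgeR adjusted p = 0.0124). Socs3, the feedback inhibitor of gp130, stood at 45.5 and 44.6 CPM and 35.0 and 36.8 CPM in ES cells and at 18.9 and 18.9 CPM in FLICs, and was called lower in both comparisons (-1.26 and -0.93). In ES cells, Il6st, Stat3 and Socs3 each had both OHT libraries below both untreated ones, as did 27.6% of all genes tested, while Lifr overlapped. The log2 fold changes of Il6st, Stat3 and Socs3 were -0.41, -0.39 and -0.33, none called (edgeR adjusted p from 0.236 to 0.272). With 1 library left out, log2 fold changes ran from -0.51 to -0.31 for Il6st and -0.51 to -0.24 for Stat3. Those of Socs3 ran from -0.34 to -0.29, and those of Lifr from -0.35 to 0.11.

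**Figure D4:**
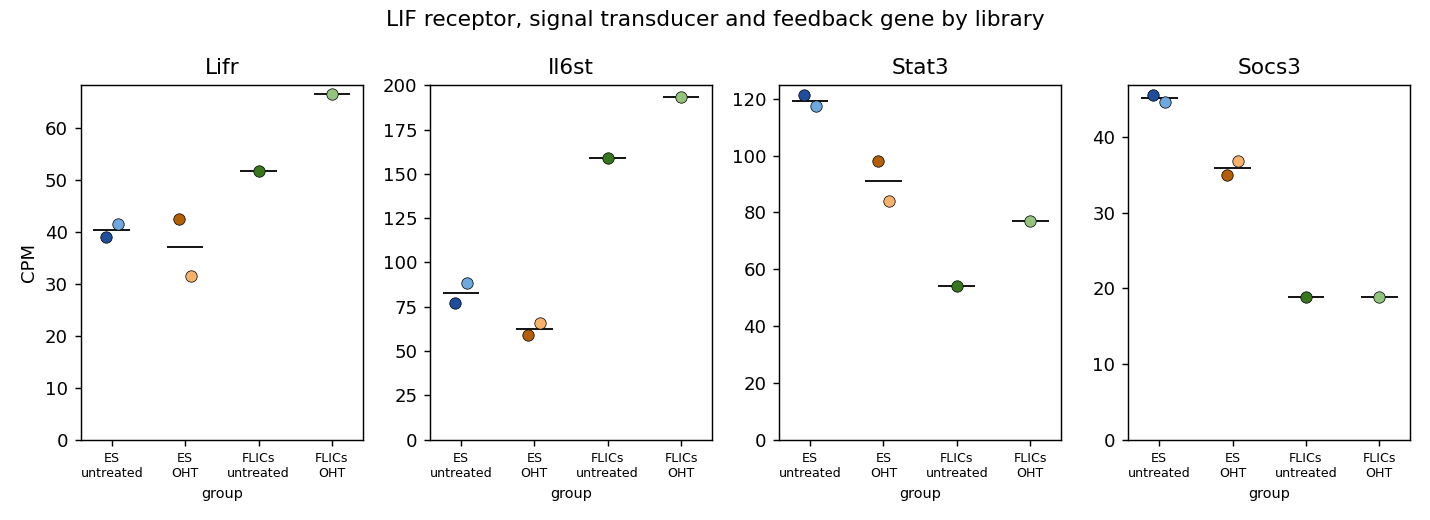
CPM of the LIF receptor chain Lifr, its partner Il6st, the transcription factor Stat3 and the feedback inhibitor Socs3 in each library (points), with the group mean as a bar. Il6st and Lifr stand highest in FLICs, and Socs3 highest in untreated ES cells.

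FLICs had a single library with and a single one without OHT, and their difference therefore lacks a replicate check and was not tested. What was left of the core network stood lower in the OHT library. In FLICs 21 of the 32 genes reached a mean of 1 CPM, and 16 of these were lower with OHT, beside 43.6% of all genes at that level. Past 2-fold on log2(CPM + 1), 2 were lower, Zscan10 and Utf1, beside 0.102% of all genes, and 0 were higher, beside 0.424%. The median difference of the 21 was -0.32, beside 0.034 for all genes.

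Zscan10, a zinc-finger partner of Oct4, had 11.7 CPM without and 4.71 CPM with OHT (counts of 380 and 206), and Utf1 had 30.2 and 13.6 CPM (counts of 978 and 596). Pou5f1 stood at 80.9 and then 47.3 CPM, which is 58.5% of the untreated level. Nanog kept 61.9%, Sox2 62.6%, L1td1 62.2%, Lin28a 60.7%, Sall1 57.2% and Sall4 54.2%. Mybl2 kept 77.3%, Trim71 78.5%, Tbx3 82.8% and Jam2 93.4%. Fgf4 had only 37 and 14 counts. Of the Krüppel-like factors, Klf5 kept 93.2%, Klf2 stood at 107% and Klf4 at 121% of the untreated level. Zfp296, at 4.78 and 4.78 CPM, and Socs3, at 18.9 and 18.9 CPM, stood level, while Stat3, Lifr and Il6st stood at 143%, 129% and 122%.

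Markers of other states differed beside these values, also without a test. The 9 formative and primed epiblast markers summed to 145.7 CPM in untreated FLICs and 99.1 CPM with OHT. With OHT 8 of 9 were lower, beside 43.6% of all genes whose mean reached 1 CPM, and Cer1 was at 0 without it. Dnmt3b, the de novo DNA methyltransferase of the epiblast, stood at 54.5 and 24.2 CPM. Foxa2 was the highest of that list, at 66.8 and 61.5 CPM, and all its markers but Foxa2 and Dnmt3b stood at 6.48 CPM or less. All 10 fibroblast and mesenchymal markers were higher with OHT, summing to 18012 and 23237 CPM, though Thy1 and Pdgfra stayed under 1 CPM. Thus 0 of the 10 were lower, beside 43.6% of all genes whose mean reached 1 CPM. Vim was higher by only 0.11 on log2(CPM + 1). The part of either list in the lower core values was not tested. The two-cell-like list summed to 0.154 CPM without OHT, and its 6 markers had no count with OHT. In FLICs without and with OHT, the 4 neural markers summed to 820 and 938 CPM, against 317 to 351 CPM in untreated ES cells. Most of this was Nes, at 717 and 820 CPM in FLICs, while Tubb3 stood lower there than in ES cells, at 66.6 and 85.3 CPM. Between the untreated groups, 2 of the 4 were called higher in FLICs, beside 26.2% of all genes tested, and 2 lower, beside 28.7%. The primitive endoderm list summed to 182 and 193 CPM in FLICs, against 5.79 to 6.33 CPM in untreated ES cells. Most of this was Dab2, at 155 and 160 CPM in FLICs. Between the untreated groups, 3 of these 6 markers were called higher in FLICs, beside 26.2% of all genes tested. The other 3 were called lower, beside 28.7%. The trophoblast list summed to 72.0 and 89.5 CPM in FLICs.

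**Figure D5:**
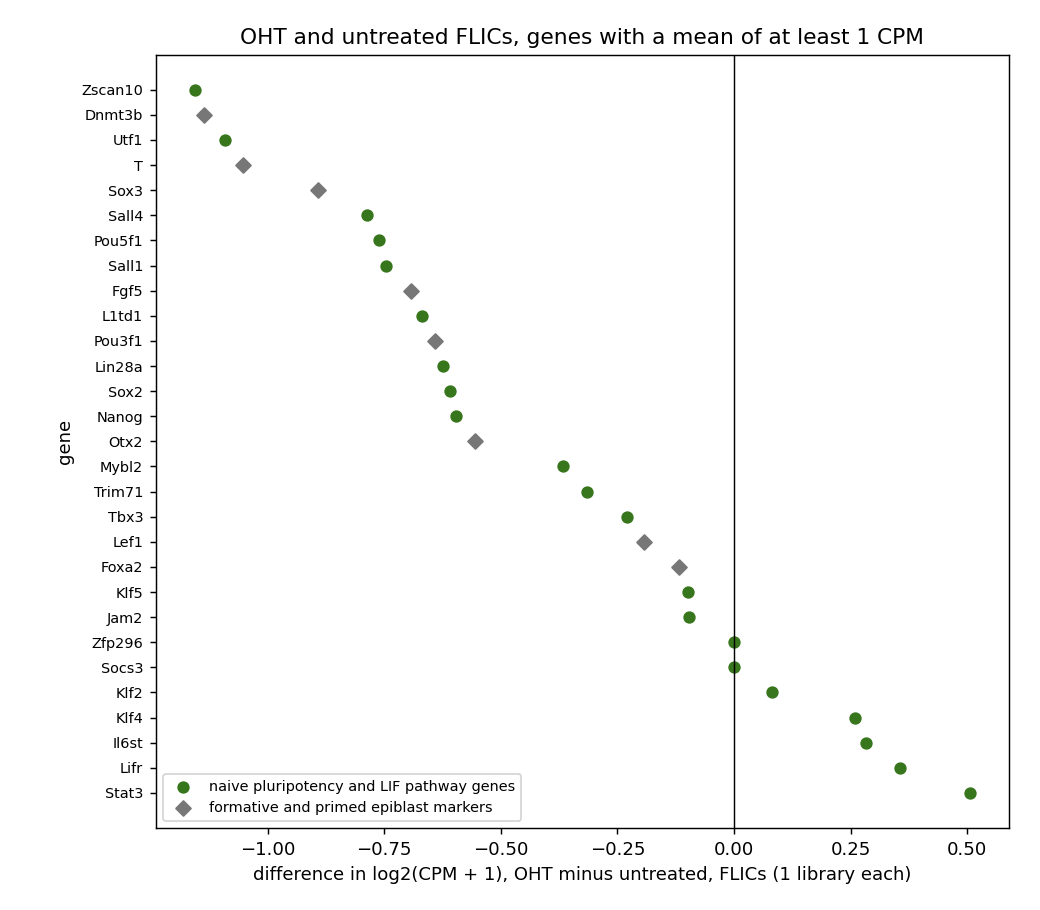
Difference in log2(CPM + 1) between the OHT-treated and the untreated FLICs library for the 21 genes that reached a mean of 1 CPM there (circles) and for the formative and primed epiblast markers at that level (diamonds). Zscan10, Dnmt3b, Utf1 and T lie past -1, the core factors between -0.79 and -0.60, and Stat3, Lifr, Il6st and Klf4 to the right of 0.

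Whether the OHT response differed between the cell types was tested as an interaction, in which each FLICs condition is 1 library and the spread comes from the ES libraries alone, assumed to hold for FLICs. By edgeR 0 of 32 genes were called, beside 0% of all genes tested, and DESeq2 also called 0 of the 32, beside 0.122% of all genes lower and 0.00644% higher. At an unadjusted p under 0.05, 4 were lower and 4 higher in FLICs than in ES cells, beside 3.23% and 3.57% of all genes. Those lower were Fgf4 (-1.55, SE 0.33), Utf1 (-0.97, SE 0.28), Zscan10 (-0.93, SE 0.25) and Pou5f1 (-0.88, SE 0.24), with edgeR adjusted p from 0.638 to 0.649. Those higher were Stat3 (0.90, SE 0.25), Il6st (0.70, SE 0.25), Klf4 (1.13, SE 0.38) and Tfcp2l1, whose value rests on 0 and 6 counts in FLICs, with edgeR adjusted p from 0.638 to 0.699. Without OHT-treated ES replicate 1 edgeR called 4 lower, beside 6.54% of all genes, and 5 higher, beside 11.7%. Without replicate 2 it called 6 lower, beside 4.87%, and 5 higher, beside 8.55%.

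The other genes of the pathway, 52 in 3 lists, held no call with OHT in ES cells, where few genes were called at all, and calls in both directions between the cell types. With OHT in ES cells, 0 of 52 were called by edgeR, beside 0.534% of all genes tested. At an unadjusted p under 0.05, 10 were lower and 3 higher, beside 7.79% and 10.5% of all genes. The largest log2 fold changes were those of Nr2f2, a nuclear receptor of mesodermal cells (0.0993 and 0.0798 CPM without, 1.44 and 0.588 CPM with OHT, so that its fold rests on very few counts, edgeR adjusted p = 0.088), Cntf (0.74), Id1 (0.74) and Bcl3 (-0.60). In untreated FLICs against untreated ES cells, 9 were called higher, beside 26.2% of all genes, and 25 lower, beside 28.7%. Of the 16 LIF and JAK-STAT3 genes, 4 were called higher, beside 26.2% of all genes, and 5 lower, beside 28.7%, so both counts lay near those shares. Junb (3.06), Jak2 (2.46), the kinase that gp130 uses beside Jak1, then the cytokine Cntf (1.86) and Jak1 itself (1.42) were higher. Socs2, Bcl3, Tyk2, Pim1 and Pim3 were lower. Of the 25 genes of the naive network and its inputs, 16 were called lower, beside 28.7% of all genes. They were led by Tdh, the threonine dehydrogenase of ES cells (501 and 528 CPM in untreated ES cells, 0.154 CPM in untreated FLICs), Dppa2 and Pecam1. Others among them were Tet1, Sox15, Dppa4, Gbx2, Gdf3, Tdgf1, Tet2, Mycn, Etv5, Ncoa3, Rif1 and Spry2. The 3 called higher, beside 26.2% of all genes, were Dusp6, Id3 and Myc. Of the 13 genes that regulate exit from the naive state, 2 were called higher, beside 26.2% of all genes, and 5 lower, beside 28.7%. Nr2f2 (at 85.4 CPM in untreated FLICs) and Fnip1 were higher, and those lower included Jarid2, Etv5, which is on both lists, Rbpj and Zfp281. With OHT in both cell types, 9 were called higher, beside 28.4% of all genes, and 27 lower, beside 29.3%, and Etv4 and Spry4 joined the lower ones. In the interaction 0 of the 52 were called by edgeR, beside 0% of all genes tested. At an unadjusted p under 0.05, 3 were lower and 2 higher, beside 3.23% and 3.57% of all genes.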

How the data were processed

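RNA-seq was made from total RNA of 6 libraries with a stranded TruSeq kit, according to the protocols in the labels. The deposited values are raw, unnormalized read counts, with a length for each gene, in 1 table. Salmon, DESeq2 and GRCm38 are named in the submitters' processing notes, while annotation, settings and strand mode were not given in those sources. Multiples of 3 made up 77.6% of the lengths, so RPKM, computed here, is mostly per coding length. A symbol was found for 22509 genes (91 had none), and positions are from GENCODE M21.

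The counts were filtered with filterByExpr, scaled by TMM and fitted with edgeR 4.0.16 in R 4.3.3, by quasi-likelihood, 4 group means over all 6 libraries, with 2 residual degrees of freedom and a common biological coefficient of variation of 18.5%. P-values were adjusted over all 15535 genes and called at 0.05. SE is the log2 fold change over the root of F. Single libraries were compared on log2(CPM + 1) with a threshold of 2-fold and a mean of at least 1 CPM, without a test. The procedure was tested on simulated data with changes of at least 2-fold. All fitted changes of the 32 genes with OHT in ES cells were smaller, so the simulation does not show how often such changes would be called. Replicate libraries were not duplicates: over genes, chi-square divided by its degrees of freedom was 13.9 for the untreated ES pair. DESeq2 1.42.0, other scaling, filters, left-out libraries and a replicate block were alternatives. Named genes were all 32 members, Terf2, other pathway genes that were called or among the 4 with the largest fold changes, and up to 3 genes a marker list by level. Thy1, Pdgfra, Postn, Cer1, Krt18 and T were named after their values were seen. Some called pathway genes are not reported here by name. Members and lists were chosen with earlier results of these data known.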

Additional observations from a re-analysis of the deposited data

How the results depend on the processing

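The fall of the 28 genes outside the LIF pathway in FLICs was called under each alternative tried, in both comparisons. Zero calls among the 32 genes in ES cells with OHT held with RLE scaling, with both other count filters, with the ES libraries alone and without either untreated library, but not elsewhere. DESeq2 called 3 lower, and the fit with the replicate block called 5 lower (Klf4, Klf5, Esrrb, Tfcp2l1 and Sall1) and 1 higher (Dppa3). The replicate numbers come from the titles only, and same-numbered ES libraries deviated together (r = 0.345 across 15535 genes), which is a hint from the data, not the design. With the block, 814 genes were called higher and 392 lower in all, and in the interaction 1 and 16.
Over all genes with OHT in ES cells, calls higher and lower were 282 and 79 by DESeq2, 143 and 5 with the ES libraries alone, 236 and 26 without a count filter, and 44 higher with a filter of 5 CPM in 2 libraries, against 81 and 2. Leaving out 1 library gave 17 to 3053 higher and 1 to 3112 lower, and among the 32 genes 0 to 3 higher and 0 to 21 lower. In the interaction DESeq2 called 1 gene higher and 19 lower, and leaving out 1 library gave 0 to 1801 higher and 0 to 1003 lower, with 0 to 5 and 0 to 6 among the 32.
The median of the 32 genes in the interaction was -0.015 by DESeq2 and ran from -0.065 to 0.25 with 1 library left out. In FLICs against ES cells it was -5.19 with the replicate block without OHT, -5.24 with the stricter filter with OHT, and -5.25 to -5.12 with 1 library left out with OHT. For untreated FLICs, leaving out 1 library gave 2506 to 5685 genes higher and 2845 to 6407 lower, with 0 to 2 of the 32 higher.
Signs turned for Jam2 in ES cells with the stricter filter (0.00054), and in the interaction for Tbx3 (0.021) and Jam2 (0.013) without a count filter and for Jam2 with the replicate block (0.046). With 1 library left out, log2 fold changes of OHT in ES cells ran from -0.16 to 0.34 for Dppa5a, -0.58 to 0.32 for Jam2, -0.35 to 0.11 for Lifr, -0.66 to 0.31 for Lin28a, -0.020 to 0.097 for Nr0b1, -0.50 to 0.0082 for Sall4 and -0.35 to 0.052 for Zfp296. In the interaction they ran from -0.42 to 0.48 for Jam2, -0.40 to 0.17 for L1td1, -0.25 to 0.017 for Mybl2, -0.36 to 0.21 for Sall1, -0.079 to 0.018 for Tbx3, -0.11 to 0.48 for Trim71 and -0.051 to 0.35 for Zfp296.
In FLICs with OHT, a pseudocount of 0.1 CPM gave 150 genes higher and 39 lower past 2-fold, and a mean of at least 5 CPM gave 29 higher, against 50 and 12, with 2 of the 32 lower each time. With plain library totals 1 of the 32, Jam2, was past 2-fold higher in OHT-treated ES replicate 2 than in replicate 1, against 0. The cause of these shifts was not tested, other than that fits without an OHT-treated ES library take their spread from the untreated pair. Depth limits the FLICs values of genes with under 10 counts.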
